A study of Arabidopsis thaliana with 4 samples.

Results

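Of the membrane transporter families of Arabidopsis that move ions and small metabolites, 10 genes had a probe set named by a family symbol. In these root arrays, 4 of them had signals high enough to be tested. Of the 4, 0 passed the test for a difference between nlp7-1 and wild-type roots, where 2.27% of all tested probe sets passed. The largest difference was a lower signal of the cation exchanger gene CHX16 in the mutant, by 0.74 ± 0.24 on the log2 scale (SE, n = 2 per genotype), which did not pass. The members are probe sets that name 1 gene with a symbol made of a family name, such as SULTR, PHT, ZIP, CHX, TIP or ABCA to ABCI, followed by a number. Genes with a locus between AT1G20910 and AT1G27530, a stretch of chromosome 1, are left out by the rule, although no named probe set of these families lay there. The rule found 10 of the 13513 probe sets that name 1 gene, out of 22810 on the array. They are 6 cation/H+ exchanger genes (CHX15, CHX16, CHX19, CHX20, CHX21 and chx28), the zinc transporter genes ZIP6 and ZIP9, the manganese transporter gene MTP11 and the purine permease gene PUP15. A total of 337 genes carry a symbol of these families in the RefSeq gene list, whereas the members were found by the symbols of the platform annotation. Family genes that the platform names by another symbol were not searched for. Most of the 337 were not analysed here, including those of the sulfate, phosphate, aquaporin, sugar and ATP-binding cassette families. The collection is therefore mainly one of cation and metal transporters, with PUP15 as its only carrier of metabolites.

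Whole roots of wild-type Col-0 and of the nlp7-1 mutant in the Col-0 ecotype were compared at an age given as 5 dai. Both genotypes were grown untreated on MS agar (1x salts, pH 5.7) at 22 °C with a light period of 16 h. Each genotype had 2 biological replicates of about 60 pooled roots, and each replicate was hybridised to 1 Affymetrix ATH1 array. NLP7 encodes a transcription factor of nitrate signalling. It had no named probe set, so the genotype labels could not be checked on the mutated gene. The values are MAS5 signals on a linear scale, and all 4 arrays had been scaled to the same trimmed mean of 250.02. Of 18 marker genes of root cell types, 3 had a named probe set: the hair cell gene EXPA7, with signals between 367 and 607 in the 4 samples, and the root cap genes RCPG (AT1G65570) and PASPA3 (AT4G04460). RCPG was higher in both mutant samples, at 74.4 and 39.6 in Col-0 roots, against 119 and 91.4 in mutant roots (log2 change 0.94 ± 0.32, SE; limma adjusted p = 0.280), while PASPA3 and EXPA7 overlapped between genotypes. Of 7 shoot markers 3 were named, and their summed signal was 813 and 1009 in Col-0 roots, against 664 and 793 in mutant roots.

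CHX proteins exchange potassium or sodium for protons across the plasma membrane or the membranes of the endomembrane system, and they adjust cation content and pH there. Many genes of this family are known for expression in pollen, and others act in roots or guard cells. ZIP proteins carry zinc, iron and related metals into the cytosol, while MTP proteins move metals such as zinc and manganese out of it, into vesicles, the Golgi or the vacuole. Purine permeases take up purines, and some family members also take up cytokinins.

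CHX16 was the only 1 of the 4 members above the signal filter with no overlap between genotypes. The wild-type roots gave signals of 505 (replicate 1) and 363 (replicate 2), and the nlp7-1 roots gave 316 (replicate 1) and 207 (replicate 2). Each mutant sample was lower than each wild-type sample, and the lower wild-type sample was 1.15-fold above the higher mutant sample. Wild-type roots averaged 434 ± 100 and mutant roots 261 ± 77 (SD, n = 2), and the log2 change was -0.74 ± 0.24 (SE of the moderated fit), which is 1.67-fold lower. This difference did not pass in limma after Benjamini-Hochberg adjustment over 13648 probe sets (adjusted p = 0.256, unadjusted p = 0.0207). Its 95% interval ran from -1.33 to -0.16 on the log2 scale. In a fit with same-numbered samples as blocks CHX16 was called lower (limma adjusted p = 0.00125), but 2 pairs do not settle whether the numbers pair the samples. A separation of the genotypes, whatever its size, was common. Of the 13648 kept probe sets, 3168 were separated with the mutant higher and 2851 (20.9%) with the mutant lower. An unadjusted p under 0.05 in limma was found in 13.2% in either direction, and with a lower signal in 5.71%. How many fell by as much as CHX16 was not counted.

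The spread between replicates of CHX16 was smaller than its 1.67-fold difference between genotypes, but not by much. The higher sample exceeded the lower 1.39-fold within wild type and 1.53-fold within nlp7-1. Taken over the 4 mutant and wild-type pairings, the log2 difference ran from -1.29 to -0.20. Leaving out nlp7-1 replicate 2 gave a log2 change of -0.44, and leaving out nlp7-1 replicate 1 gave -1.05. Of the 3 shoot markers, LHCB4.1 was also lower in both mutant samples, with a log2 change of -0.64 ± 0.21 (SE; limma adjusted p = 0.265). The genotypes overlapped for LHCB4.2 (-0.39 ± 0.25) and for RCA (-0.02 ± 0.11). The part of these markers, and of the root cap marker RCPG, in the CHX16 value was not tested. In whole roots, fewer cells of a type and less RNA per cell cannot be told apart.

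**Figure D1:**
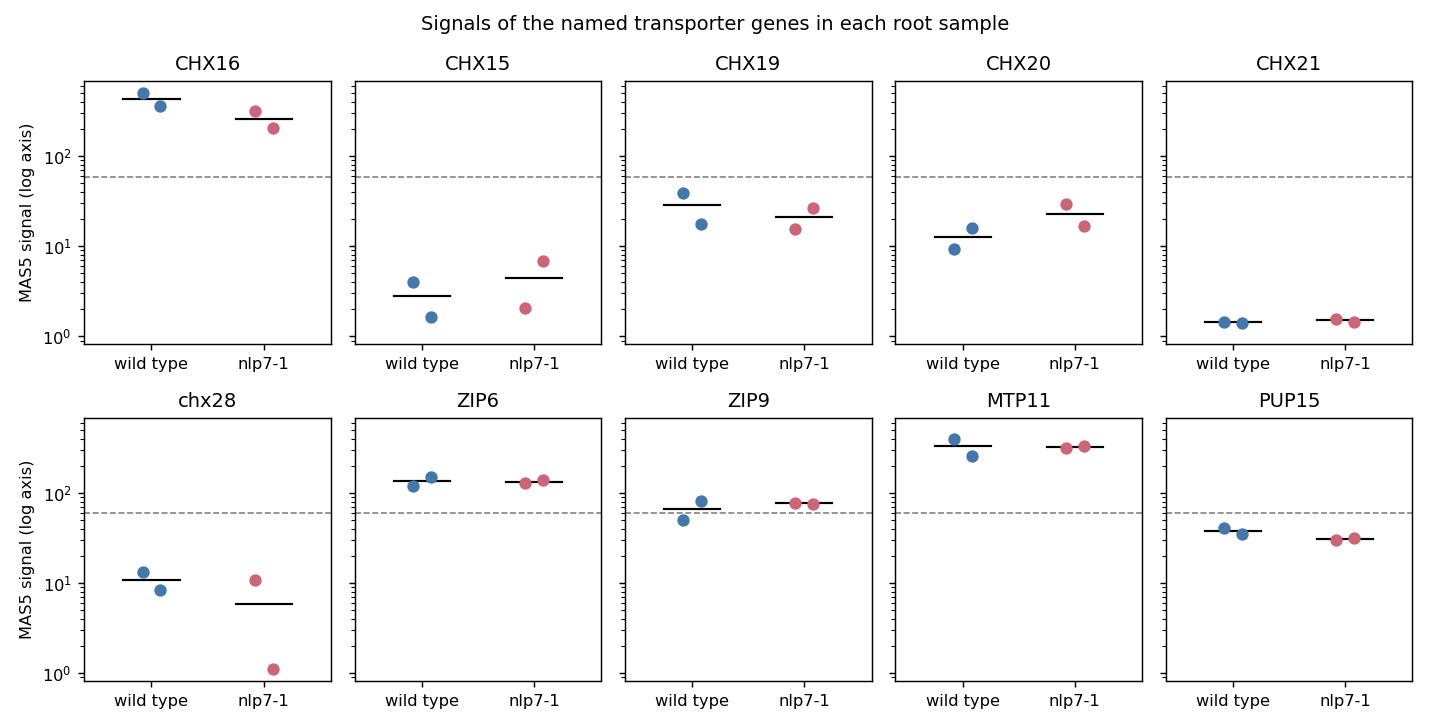
MAS5 signal (log axis) of each of the 10 transporter genes in the 2 wild-type and 2 nlp7-1 root samples, with points for samples, bars for the arithmetic mean of each genotype and a dashed line at the filter signal of 59.4. Panels show separate probe sets, whose levels cannot be set against each other. CHX16 lies above the line, and its genotypes do not overlap, with wild-type roots at 363 and above and mutant roots at 316 and below.

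The other 5 CHX genes had mean log2 signals below the filter, which keeps probe sets at or above a signal of 59.4, and their values are given here without a fold between genotypes or a test. No detection calls were used, so a low signal is not evidence that a gene was silent. CHX20, known for its part in osmotic adjustment of guard cells, had 9.23 and 16.0 in Col-0 roots, against 29.6 and 16.7 in mutant roots. Both mutant samples were above both wild-type samples, but nlp7-1 replicate 2 exceeded wild-type replicate 2 by little.

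CHX21, implicated in sodium movement within the root, had 1.44 and 1.41 in Col-0 roots, against 1.58 and 1.45 in mutant roots. These signals lie far below the filter, and the mutant samples were higher by small amounts. CHX19 had 39.3 and 17.9 in Col-0 roots, against 15.7 and 26.5 in mutant roots, so the genotypes overlapped. CHX15 overlapped as well, with 4.02 and 1.66 in Col-0 roots, against 2.09 and 6.82 in mutant roots.

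The probe set of chx28 had 13.3 and 8.35 in Col-0 roots, against 10.7 and 1.11 in mutant roots. One mutant sample fell between the wild-type samples and the other was below them, and all 4 signals were far under the filter.

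ZIP9, a gene known to be induced by zinc deficiency, differed more between the wild-type replicates than between genotypes. Its signal was 50.4 and 82.1 in Col-0 roots, against 77.7 and 75.7 in mutant roots. Both mutant samples lay between the wild-type samples. The log2 change was 0.25 ± 0.26 (SE; limma adjusted p = 0.745), with a 95% interval from 0.770-fold to 1.85-fold. Leaving out wild-type replicate 1 gave -0.098 and leaving out replicate 2 gave 0.60, so its sign depended on 1 sample. ZIP9 lay just above the filter, with 1 wild-type sample below it.

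ZIP6, of the same family of zinc and iron transporters, had 119 and 152 in Col-0 roots, against 130 and 138 in mutant roots. Again both mutant samples fell between the wild-type samples. Its log2 change was -0.0084 ± 0.166 (SE; limma adjusted p = 0.989). The 95% interval ran from 0.754-fold to 1.31-fold, so the interval leaves room for modest changes either way. The sign turned when wild-type replicate 2 was left out (0.17) or when nlp7-1 replicate 1 was (0.033).

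MTP11, a manganese transporter of the secretory pathway that is known for manganese tolerance, had 399 and 259 in Col-0 roots, against 319 and 334 in mutant roots. The mutant samples once more lay inside the wild-type range. Its log2 change was 0.020 ± 0.208 (SE; limma adjusted p = 0.979), with a 95% interval from 0.716-fold to 1.44-fold. Leaving out wild-type replicate 1 gave 0.33, and leaving out replicate 2 gave -0.29. The value was also just below 0 without nlp7-1 replicate 2 (-0.014), so its sign depended on which samples were used.

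The 3 divalent metal genes shared a pattern of close mutant replicates and separated wild-type replicates. The higher sample exceeded the lower 1.63-fold for ZIP9, 1.28-fold for ZIP6 and 1.54-fold for MTP11 in wild type, and 1.03-fold, 1.06-fold and 1.05-fold in nlp7-1. Wild-type replicate 1 was the low sample for both ZIP genes and the high one for MTP11. A wider wild-type pair, by any amount, was frequent on these arrays, being found in 59.5% of all kept probe sets. How many had a mutant pair as close and a wild-type pair as separated as these genes was not counted.

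**Figure D2:**
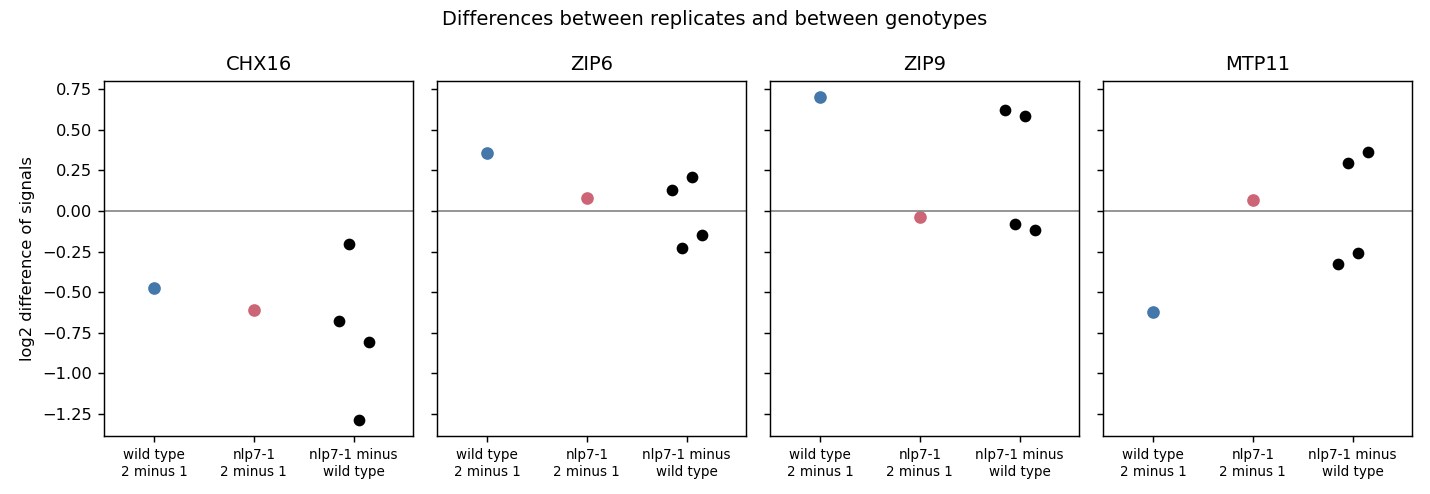
Log2 differences of signals for the 4 members above the filter, with replicate 2 minus replicate 1 in each genotype (coloured points) and nlp7-1 minus wild type for the 4 possible sample pairs (black points). All 4 pairings of CHX16 are below 0, from -1.29 to -0.20, whereas those of ZIP6, ZIP9 and MTP11 lie on both sides of 0.

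PUP15, of the purine permeases, was below the filter with 41.1 and 34.8 in Col-0 roots, against 30.4 and 31.8 in mutant roots. Both mutant samples were lower, by less than the gap between the wild-type samples in the closest pairing. Counting all 10 members, the genotypes did not overlap for 2 that were higher in nlp7-1 (CHX20 and CHX21) and 2 that were lower (CHX16 and PUP15). With no filter on low signals, the genotypes did not overlap in 40.4% of all probe sets.

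Among the 4 members above the filter, 0 were called higher and 0 lower in limma at an adjusted p under 0.05. An unadjusted p under 0.05 was reached by 1 of them, CHX16, and by 13.2% of all kept probe sets. Among all kept probe sets 1.64% were called higher and 0.630% lower, 2.27% together, and among named ones outside the chromosome 1 stretch 0.820% were called, so a count of 0 in 4 genes is near the background. The median log2 change of the 4 was 0.0059, against 0.00016 over all kept probe sets. In simulations of this fit on the 13648 probe sets, 54.3% of 2-fold and 5.45% of 1.5-fold changes were called, and the 1.67-fold difference of CHX16 lies between these sizes.

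The named genes that lie next to the members were compared in gene order. The 20 nearest kept genes around CHX16 (AT1G64170), 10 on each side, had log2 changes from -0.53 to 0.30 with a median of 0.0041. None of these neighbours passed in limma. CHX16, the member with the largest drop, was below all 20. Around ZIP9 (AT4G33020) the 20 neighbours ran from -0.34 to 1.62, with 1 called (AT4G32950, looked up after the values were seen), and 16 of them were below ZIP9. Around MTP11 (AT2G39450) and ZIP6 (AT2G30080) the medians were 0.0041 and -0.020, and 0 of the neighbours of either gene were called. Each had 20 neighbours, with 10 of them below MTP11 and 11 below ZIP6.

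A few probe sets came close to the rule without meeting it and were looked at after the values were known. A probe set shared by PUP18 and AT1G57980 had 298 and 292 in Col-0 roots, against 412 and 353 in mutant roots. Both mutant samples were higher, with a log2 change of 0.37 ± 0.13 (SE; limma adjusted p = 0.287), and the genes cannot be separated. The other probe set above the filter, that of ACA.l, had overlapping genotypes and a log2 change of 0.053 ± 0.171 (SE; limma adjusted p = 0.931). CHX6B had signals from 18.8 to 26.8 and the zinc transporter gene MTPA1 from 4.74 to 15.1, both below the filter and both with overlapping genotypes.

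Beyond these families, 30 genes of other transporter families had a named probe set, and 12 were above the filter. They were 5 of 14 SWEET sugar transporter genes, 3 of 8 glutamate receptor channel genes (GLR), 2 of 3 organic cation transporter genes (OCT) and 2 of 3 tonoplast monosaccharide transporter genes (TMT). In limma 1 of the 12 was called higher and 0 lower, where 1.64% and 0.630% of all kept probe sets were. All 12 lay outside the chromosome 1 stretch, and of the 7199 named kept probe sets outside it 17 were called higher and 42 lower. An unadjusted p under 0.05 was reached by 3 of the 12, all of them SWEET genes, and by 13.2% of all kept probe sets. The median log2 change of the 12 was -0.15, against 0.00016 over all kept probe sets. NRT2.5, a high-affinity nitrate transporter gene of nitrogen starvation, was below the filter with signals from 16.3 to 25.03 and overlapping genotypes.

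The products of SWEET genes let sugars pass down their gradients. Of the 5 SWEET genes above the filter, 1 (SWEET11) was higher in the mutant and the others were lower, with a median log2 change of -0.43. SWEET11, a sucrose exporter of the plasma membrane, had 87.6 and 67.0 in Col-0 roots, against 151 and 184 in mutant roots. It rose by 1.12 ± 0.19 on the log2 scale (SE; limma adjusted p = 0.0430) and no longer passed without either mutant sample (0.110 and 0.204), nor without the named genes of the chromosome 1 stretch (0.0653). SWEET2, a vacuolar sugar transporter known to limit sugar loss from roots, had 479 and 803 in Col-0 roots, against 284 and 347 in mutant roots. Its log2 change was -0.98 ± 0.25 (SE; limma adjusted p = 0.150), with no overlap between genotypes. With a sample left out, its log2 change ran from -1.36 to -0.61.

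SWEET17, a fructose transporter of the vacuole, had 442 and 470 in Col-0 roots, against 342 and 335 in mutant roots. The replicates were close and the genotypes apart, at a log2 change of -0.43 ± 0.11 (SE; limma adjusted p = 0.165). OCT5 had 367 and 358 in Col-0 roots, against 462 and 392 in mutant roots, a log2 change of 0.23 ± 0.13 (SE; limma adjusted p = 0.521). The remaining 8 genes had log2 changes from -0.46 for SWEET3 to 0.29 for ATGLR1.2.

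**Figure D3:**
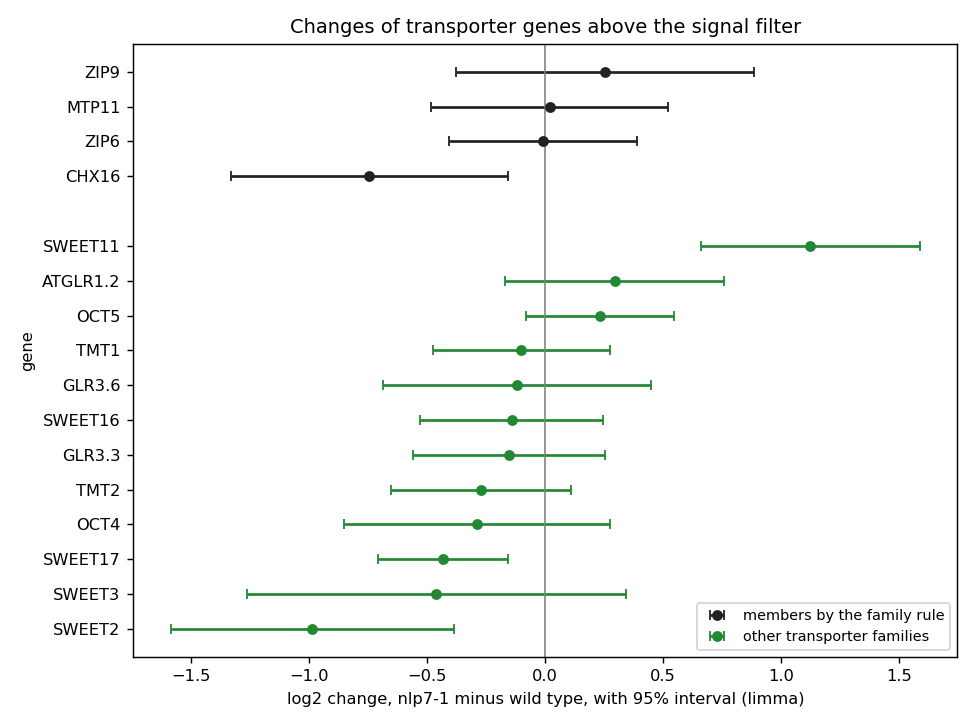
Log2 change of nlp7-1 minus wild type in limma, with unadjusted 95% intervals, for the 4 members above the filter (black) and 12 genes of other transporter families (green). The intervals of CHX16, SWEET11, SWEET2 and SWEET17 do not include 0, and of these SWEET11 alone passed after adjustment over all kept probe sets.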

How the data were processed

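The submitters deposited linear signal intensities per probe set, and their processing notes name MAS5 without a version; per the labels each array was one sample. The 64 control probe sets were removed, signals were log2 transformed without a pseudocount, and a probe set entered the fit if the average of its 4 log2 values reached the 40th percentile, equal to a signal of 59.4. A limma 3.58.1 model (R 4.3.3; eBayes with a variance trend) tested genotype on these 13648 probe sets, two-sided and adjusted by Benjamini-Hochberg over all of them. The fit was tested on simulated data (20 simulations of 200 changed probe sets). Standard errors and 95% intervals are those of the moderated fit, and intervals are unadjusted.

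In the platform annotation 13513 probe sets name 1 gene, 503 several and 8730 none. Symbols and gene order came from RefSeq (TAIR10.1), and no coordinates are printed because the files name no build. Upper and lower case were treated alike in the family rule, which admits chx28. A proline iminopeptidase gene with the symbol PIP was removed from the other transporter families. Genes were named if they passed, or had one of the 4 smallest p above the filter or 2 highest signals in their transport class. Members below the filter were also accounted for by name, among them CHX15, CHX20, CHX21 and chx28, which met none of these conditions. The members and lists were chosen with earlier results of these data known. Alternatives were other filters, pseudocounts of 32 and 100, quantile and median scaling, other variance priors, an unmoderated test, a replicate block, omission of each sample and omission of the chromosome 1 genes.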

Additional observations from a re-analysis of the deposited data

How the results depend on the processing

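The count of 0 transporter genes called higher held under every alternative run, and the count of 0 called lower under all but the replicate block, where it was 1 (CHX16, limma adjusted p = 0.00125). The titles number the samples 1 and 2 in both genotypes, and same-numbered samples deviated together over kept probe sets (r = 0.436), but 2 pairs do not settle whether the numbers pair the samples. The same block gave 1290 called probe sets in place of 310, and 2 genes of the other transporter families called lower, SWEET2 and SWEET17 (limma adjusted p = 0.000414 and 0.0280). Called probe sets numbered 116 with a variance prior without trend, 0 with an unmoderated test (1371 at an unadjusted p under 0.05) and 105 without the named genes of the chromosome 1 stretch, and 14 to 770 with a sample left out. Counts with a sample left out rest on the spread of the genotype that keeps 2 samples. The median log2 change of members was -0.15 with the filter at the 20th percentile, which admits 6 members, and -0.14 to 0.044 with a sample left out. Log2 changes with a sample left out ran from -1.05 to -0.44 for CHX16, -0.098 to 0.60 for ZIP9, -0.29 to 0.33 for MTP11 and -0.19 to 0.17 for ZIP6. In other transporter families the count called higher was 0 with no filter, without a trend, in the unmoderated test and without the chromosome 1 genes, and 0 to 1 with a sample left out, as was the count called lower. For the other families, these alternatives were chosen after seeing the data. With no filter, the 6 dim members had limma adjusted p from 0.634 for CHX20 to 0.990 for CHX21.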
